A study of Mus musculus with 9 samples.

Results

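Design A is the first of 3 Affymetrix mouse probe collections, called A, B and C, on which labelled RNA from sorted retinal cells was hybridised. Its 3 arrays, out of 9 in the series, are described here by ranking every gene by its signal, and by reading what stands at the highest and lowest ends. Gene lists were used only to check the labelled cell type, and some genes picked by role are named at the close. The collection holds 12422 probe sets, of which 10833 (87.2%) are paired with exactly 1 gene symbol, 396 with several and 1193 with none here. The 10833 probe sets stand for 8251 genes, out of 15964 over the 3 designs. On each array a probe set was given the percentile of its deposited intensity, from 0 (lowest) to 100 (highest), and a gene's position is the mean of these percentiles over its probe sets and over the 3 arrays. The upper and the lower tail are the 413 genes at each end, 5.01% of the genes in each case. The values themselves chose the tails, so the levels of tail genes are a description and carry no test.

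All 9 arrays carry RNA of a single condition. The cells were GFP-positive cells sorted from retinas of homozygous Tie2-GFP transgenic mice at postnatal day 8, after intraperitoneal injections from day 0 to day 7 of APB5, an antibody that neutralizes PDGFRb, the receptor through which pericytes are recruited to new vessels. The Tie2 promoter drives GFP in endothelial cells and is also known to be active in some blood cells, and the retinas were pooled before sorting. Every array shares the transgene and the antibody, and no array of untreated mice was analysed here, so no level below can be ascribed to the treatment. The labels do not say whether the 3 arrays come from separate pools of animals, so the spread between them may be technical.

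Endothelial cells line blood vessels and hold the receptors through which vessels respond to growth factors, such as the VEGF receptors, along with the junction proteins that seal the vessel wall and the collagens of the basement membrane. In the retina of a newborn mouse the vessels are still growing, and their endothelial cells divide, migrate and form a barrier. Any cell also spends much of its messenger RNA on ribosomes, the cytoskeleton, energy supply and protein folding. On an array of this kind the brightness of a probe set depends on its probes as well as on its transcript, so the order of genes given here is an order of signals and not of transcript abundance.

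Endothelial markers stood high. Of 8 listed genes, all measured, 7 lay above position 80, beside 18.4% of all genes, and 5 in the upper tail, with a median of 97.5 against 51.8 over all genes. Their summed intensity was 8362, 9588 and 7937 on the 3 arrays. The exception was Pecam1, the adhesion molecule CD31, at 47.1, 49.6 and 43.9 and position 52.4. Mural markers, which label pericytes and smooth muscle, lay between positions 36.0 and 54.2 in all 6 measured genes, and their summed intensity ran from 223 to 245. Of the 28 measured markers of microglia, neurons, photoreceptors, glia, erythroid cells and platelets, lymphocytes and granulocytes, and pigment epithelium and lens, 1 lay above 80, the lens crystallin gene Cryaa at 364, 239 and 239. In a sorted bulk sample, fewer cells of a type and less RNA per cell cannot be told apart.

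The tails were far apart in signal on every array. The median intensity of upper-tail genes was 683, 704 and 630 on arrays 1, 2 and 3, and that of lower-tail genes was 8.87, 9.37 and 9.59, a ratio of 77.0, 75.1 and 65.7. Upper-tail genes rested on 446 probe sets, 4.12% of the named ones, which held 31.6%, 32.2% and 31.5% of the summed signal. Array 3 had the narrowest separation: after each array was centred on its median, it was the lowest of the 3 arrays in 255 of 413 upper-tail genes (61.7%, beside 38.2% of all genes) and the highest in 180 of 413 lower-tail genes (43.6%, beside 30.1%). The files give no call of whether a probe set is above background, so a low value is a low signal and no more.

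**Figure D1:**
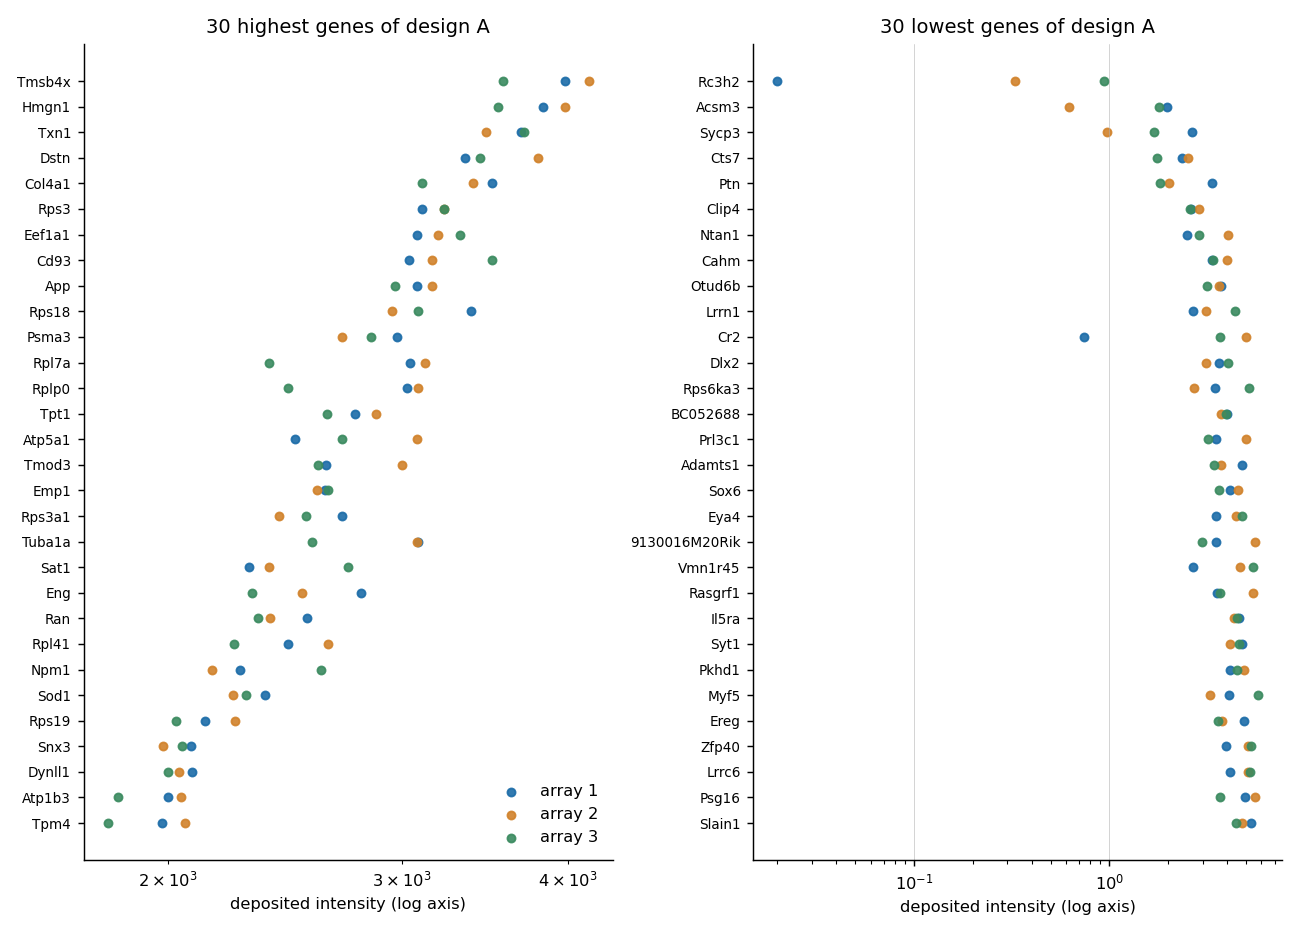
Deposited intensity (log axes) of the 30 highest genes (left) and the 30 lowest genes (right) of design A, with 1 point per array. The highest genes keep their 3 points close together, whereas Rc3h2, Acsm3, Sycp3 and Cr2 at the lower end spread widely.

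At the very top stood Tmsb4x, which encodes the actin-monomer binding peptide thymosin beta 4. Its intensity was 3978, 4148 and 3574, a position of 99.9 ± 0.024 (SD, n = 3 arrays). Other genes of the actin and tubulin cytoskeleton were among the 30 highest. Dstn, for the actin-severing protein destrin, read 3348, 3796 and 3438. Tmod3, whose product caps the slow-growing end of actin filaments, read 2628, 3001 and 2592. Tpm4, a tropomyosin that winds along those filaments, read 1979, 2059 and 1802, and the alpha tubulin gene Tuba1a read 3087, 3077 and 2565 as the mean of 2 probe sets. Dynll1, a dynein light chain, was nearly the same on every array, at 2083, 2038 and 1998.

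Genes with a known place in the vessel wall stood among these 30 as well. Col4a1, a type IV collagen chain of the basement membrane, read 3510, 3393 and 3108. Cd93, a lectin-like receptor of endothelial cells, read 3036, 3159 and 3505, and Eng, the TGF-beta coreceptor endoglin, read 2793, 2524 and 2315. Of the 30 highest genes, 6 are also measured on design B and 6 on design C. On B they lay at 99.8 for Cd93, 95.8 for Eng, 66.9 for Tuba1a, 53.5 for Dynll1, 50.2 for Tmod3 and 32.0 for Sod1. On C they lay at 99.9 for Sod1, 79.8 for Psma3, 77.3 for Dstn, 59.8 for Rplp0, 56.5 for Rps3 and 19.1 for Npm1, so their standing elsewhere was mixed. App, for the amyloid precursor protein, read 3080, 3161 and 2967. Emp1, a small membrane protein, had the smallest log2 range of the 30, with 2623, 2589 and 2641.

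The translation machinery supplied several of the highest genes. The ribosomal protein genes Rps3, Rps18, Rps3a1, Rps19, Rpl7a, Rpl41 and Rplp0 were all among the 30, with Rps3 at 3109, 3229 and 3226 and Rplp0 at 3025, 3084 and 2463. Eef1a1, the elongation factor that brings aminoacyl-tRNA to the ribosome, read 3079, 3192 and 3318. Npm1, a nucleolar protein of ribosome assembly, read 2266, 2158 and 2609. Ribosomal protein genes have many processed copies in the genome, and the files do not say how probes shared with such copies were handled.

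The remaining genes of the highest 30 belong to other housekeeping roles. Hmgn1, which binds nucleosomes, read 3828, 3981 and 3547. Txn1, the redox protein thioredoxin, read 3687, 3472 and 3710, and Sod1, the cytosolic superoxide dismutase, read 2367, 2239 and 2288. Atp5a1, the alpha subunit of mitochondrial ATP synthase, read 2491, 3080 and 2705. Psma3, a subunit of the proteasome core, read 2972, 2702 and 2843. Ran, the small GTPase of nuclear transport, Sat1, which acetylates polyamines, Snx3, a sorting nexin, Atp1b3, a sodium pump beta subunit, and Tpt1 complete the group, at positions from 99.5 to 99.8.

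The lowest gene was Rc3h2, which encodes an RNA-binding ubiquitin ligase of the Roquin family, at 0.02, 0.33 and 0.94. Its position was 0.042 ± 0.021 (SD, n = 3 arrays). Acsm3, a mitochondrial medium-chain acyl-CoA synthetase, followed at 1.97, 0.62 and 1.80, and Ptn, the secreted growth factor pleiotrophin, at 3.36, 2.02 and 1.81. Of the 30 lowest genes, 12 rested only on probe sets whose name carries the letter r, which the maker gives to probe sets for which its probe selection rules were relaxed. None of the 30 highest did.

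Sycp3, a component of the synaptonemal complex of meiosis, read 2.64, 0.97 and 1.69. Cts7, a placental cathepsin, read 2.36, 2.53 and 1.75, and Prl3c1, of the placental prolactin family, read 3.50, 4.99 and 3.19. Psg16, a pregnancy-specific glycoprotein, Vmn1r45, a pheromone receptor, and Myf5, a transcription factor of muscle precursors, lay at positions 1.44, 1.10 and 1.26. Dlx2, a homeobox factor of the forebrain, read 3.63, 3.13 and 4.07, and Syt1, the calcium sensor of synaptic vesicles, read 4.75, 4.14 and 4.60, although it lay at 51.6 on design B by 2 probe sets. Cr2, a complement receptor of B cells, and Il5ra, the interleukin 5 receptor of eosinophils, stood at 0.75 and 1.18, and Pkhd1, the fibrocystin gene of kidney and bile ducts, at 1.23.

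Clip4, a relative of microtubule-end binding proteins, was steady at 2.61, 2.88 and 2.60 on a probe set without a letter. It lay at 56.1 on design B and, by 4 probe sets, at 32.4 on design C. Adamts1, a secreted metalloprotease, read 4.80, 3.72 and 3.42. Otud6b, a deubiquitinase, read 3.71, 3.65 and 3.15, and Rps6ka3, a growth-factor-regulated kinase, read 3.46, 2.71 and 5.21. Both of the latter rested on r probe sets and stood high on design C, at positions 94.8 and 91.7.

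The promoters of 4 genes described above, 2 from each end, illustrate a sequence difference between the tails. They were picked among the 30 genes at each end with a single promoter entry. Their CpG ratio, the CpGs seen over those the base composition would give, is nearest the median of their tail. They were chosen by that ratio alone and are not typical in their number of CpGs. Acsm3 and Ptn both rest only on an r probe set. Each is the stretch from 250 bases before to 50 bases after the annotated start of the gene, read 5′ to 3′ on the strand of the gene from RefSeq's annotation of the GRCm38.p6 build. They lie at chr16:85173658-85173957 (minus strand), chr2:143915081-143915380 (plus strand), chr7:119760673-119760972 (plus strand) and chr6:36810130-36810429 (minus strand). Capitals mark every CG dinucleotide, the CpG that is methylated at many silent promoters and kept unmethylated in the CpG islands of most housekeeping genes.
App: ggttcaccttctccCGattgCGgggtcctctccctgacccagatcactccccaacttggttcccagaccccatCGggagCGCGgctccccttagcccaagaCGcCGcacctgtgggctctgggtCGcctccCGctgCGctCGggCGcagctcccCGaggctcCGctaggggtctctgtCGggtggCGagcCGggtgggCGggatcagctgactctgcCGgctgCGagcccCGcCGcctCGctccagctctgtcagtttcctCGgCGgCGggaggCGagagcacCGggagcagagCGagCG
Dstn: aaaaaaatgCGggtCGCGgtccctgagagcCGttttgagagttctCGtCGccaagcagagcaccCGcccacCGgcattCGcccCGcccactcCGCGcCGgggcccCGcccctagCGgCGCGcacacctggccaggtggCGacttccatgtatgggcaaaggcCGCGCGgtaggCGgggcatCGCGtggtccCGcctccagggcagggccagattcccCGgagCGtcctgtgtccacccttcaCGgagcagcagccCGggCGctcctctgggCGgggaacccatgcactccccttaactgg
Acsm3: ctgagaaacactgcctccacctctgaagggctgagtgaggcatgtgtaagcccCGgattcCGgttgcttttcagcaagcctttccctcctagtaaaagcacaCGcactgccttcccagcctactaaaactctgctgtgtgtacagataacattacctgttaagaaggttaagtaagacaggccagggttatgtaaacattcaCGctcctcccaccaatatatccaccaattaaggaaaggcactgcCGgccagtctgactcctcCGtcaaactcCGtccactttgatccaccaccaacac
Ptn: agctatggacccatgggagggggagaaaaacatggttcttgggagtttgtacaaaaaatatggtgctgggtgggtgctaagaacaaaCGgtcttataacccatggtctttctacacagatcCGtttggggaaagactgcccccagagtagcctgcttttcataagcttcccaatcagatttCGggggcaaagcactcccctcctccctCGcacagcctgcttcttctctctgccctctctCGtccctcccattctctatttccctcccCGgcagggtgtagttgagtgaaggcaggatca
The App window holds 30 CpGs and the Dstn window 31, against 7 for Acsm3 and 6 for Ptn. The median number was 23 in the upper tail and 9 in the lower tail, so these windows differ more than the tails do. The CpG ratio is 0.796 for App, 0.857 for Dstn, 0.396 for Acsm3 and 0.297 for Ptn. None of these 4 windows holds the letters TATAAA on either strand.

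A difference in the same direction was seen over the tails as a whole. A promoter was matched by symbol or gene ID for 346 of 395 protein-coding genes of the upper tail, 320 of 391 of the lower tail and 6531 of 7908 on design A, which is 87.6%, 81.8% and 82.6%. The median CpG ratio was 0.816 in the upper tail, 0.430 in the lower tail and 0.707 over all matched genes. A ratio above 0.6, a usual bound for a CpG island, was met by 80.6%, 37.2% and 62.6% of them. GC content had medians of 62.7%, 53.5% and 59.7%. Across 10 equal groups of the ranking the median CpG ratio was higher at every step, from 0.447 in the lowest to 0.810 in the highest. Across the 6531 genes, which share the same 3 libraries and are not independent replicates, Pearson's r between position and CpG ratio was 0.336 and Spearman's rank correlation was 0.316.

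**Figure D2:**
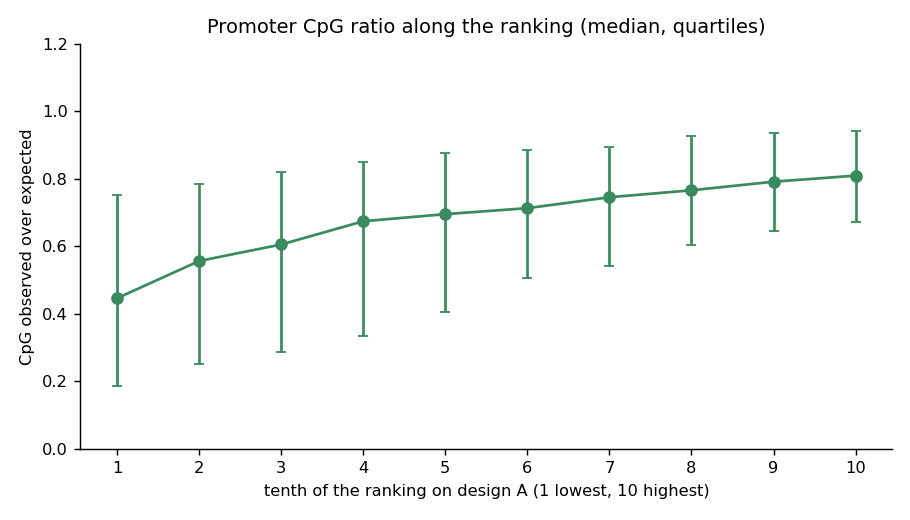
Median CpG ratio (observed over expected, points) with quartiles (bars) of RefSeq promoters in 10 equal groups of the design A ranking, from lowest (1) to highest (10). The median goes from 0.447 to 0.810, and the lower quartile differs more between the ends than the upper one.

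Short motifs searched on both strands of the same windows were also unevenly spread. The GC box GGGCGG was found in 76.3% of upper-tail, 47.2% of lower-tail and 63.1% of all matched promoters of design A, and in 35.7% of all 32851 promoter entries of the annotation. The letters CCGGAAG, a core bound by ETS factors, were found in 21.4%, 5.31%, 17.1% and 8.86% of the same groups. The letters TATAAA, of the TATA box, ran the other way, at 10.1%, 19.7%, 12.1% and 13.6%. They were counted anywhere in a window. Median GC content was 62.7% in the upper and 53.5% in the lower tail, and its part in this count was not tested. The 32851 entries cover 27025 genes, so some genes have several. The CCAAT box CCAAT was found at 41.6%, 43.4% and 42.6% in the upper tail, lower tail and all matched promoters, and in 37.4% of all entries. The E box CACGTG was found at 15.3%, 9.06%, 11.5% and 7.15%. The GC box, the ETS core and the E box each hold a CpG, so their counts are not separate from the CpG ratio.

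Genes were next grouped by the letters that open their symbols, with no list chosen by hand. Families were the groups with at least 3 opening letters and at least 8 genes, which gave 135 families with 2100 genes, 25.5% of all. The family with the highest median was Srsf, the serine and arginine-rich splicing factors, at 92.7 over 9 genes. With only probe sets without a letter it stood at 82.2, below Cct at 93.6, Prpf at 90.8 and Cops at 88.6. It was then also below Hspa at 85.9, Psmd at 85.4, and Cdc and Lsm at 84.2. Its first place thus rests on lettered probe sets as well. Srsf5 read 1286, 1245 and 1164, and Srsf11, Srsf6 and Srsf2 also lay in the upper tail, whereas Srsf1 lay at 41.8. The upper-tail share of the family was thus 4 of 9, beside 5.01% of all genes. Families were ordered by the same positions, so such a share follows in part from that order. On designs B and C a family's genes are not always the same ones. Srsf genes had medians of 88.4 on B (3 genes) and 17.6 on C (4 genes). Families with related work in RNA were also among the 10 highest. Prpf, of the spliceosome, stood at 87.1 and Lsm, whose products bind U6 RNA or decapping complexes, at 83.9. Neither had a gene in the upper tail. Medians on B and C were 44.4 and 66.5 for Prpf and 48.3 and 82.5 for Lsm.

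Chaperones and protein turnover made up several other high families. Hspa, the heat shock proteins of the 70 kDa class, had a median of 85.9 with 5 of 10 genes in the upper tail. Hspa1a read 1656, 2217 and 1952 and its near-identical neighbour Hspa1b 1689, 1979 and 1808, and whether their probes share signal is not given. Hspa5, the chaperone of the endoplasmic reticulum, read 1320, 1246 and 1245, and Hspa9, its mitochondrial relative, 1144, 1248 and 1154. Hspa2, known from testis, was the lowest member at 16.0, 39.4 and 20.2. Cct, the ring-shaped chaperonin that folds actin and tubulin, had a median of 84.9, led by Cct7 at 1326, 1518 and 1390. Psmd, the regulatory particle of the proteasome, had a median of 85.4 with all 14 genes above position 50, and Cops, the COP9 signalosome, 85.0. On designs B and C, Hspa genes had medians of 55.6 and 49.4, and Cct genes 52.3 and 58.8. Psmd genes stood there at 71.3 and 52.7, and Cops genes at 5.17 and 22.1. Cops rested on 1 gene on each of these designs, as did Cct and Psmd on B.

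The other high families were Anxa, the annexins, which bind membranes in the presence of calcium, at 88.7, Tspan, the tetraspanins, at 85.9, and Cdc, a symbol shared by unlike cell division genes, at 84.2. With only probe sets without a letter, Anxa stood at 76.9, Tspan at 77.2 and Cdc at 84.2. Members of these families did not stand together. Anxa2 read 1040, 1161 and 952, and Anxa10 read 7.83, 7.17 and 9.89, in the lower tail. Among the tetraspanins, Tspan6 read 502, 538 and 542, and Tspan12, a Norrin coreceptor of retinal endothelium, read 171, 187 and 183, whereas Tspan8 lay at 16.6. Cdc42, a small GTPase of cell shape, lay at 97.8 and Cdc73 at 6.56. Medians on designs B and C were 65.1 and 73.2 for Anxa, 70.7 and 79.2 for Tspan, and 57.2 and 63.5 for Cdc.

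The lowest family was Vmn, the vomeronasal pheromone receptors, with a median of 8.16. Of its 12 genes 6 lay in the lower tail and 9 below position 20, beside 13.8% of all genes, from Vmn1r45 at 2.67, 4.66 and 5.42 to Vmn2r26 at 52.5, 47.6 and 55.5. Next was Prl, the prolactin family, most of whose members are made by the placenta, with a median of 11.8 and 5 of 10 genes in the lower tail. Prolactin itself was not low: Prl read 46.9, 51.2 and 46.3. On the other designs, genes of the prolactin family had medians of 36.2 on B (2 genes) and 26.6 on C (7 genes). Vmn had only 1 gene there, on C at 21.8. The members of these families resemble each other in sequence, and the files do not say which probes they share.

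The other low families hold enzymes, binding proteins, signalling molecules and structural proteins. Fabp, the fatty acid binding proteins, had a median of 15.9. Fabp4, found in adipocytes and in endothelial cells of many tissues, was its lowest member at 10.1, 12.5 and 11.7, and Fabp7, of the neural lineage, its highest at 85.9, 116 and 127. Sult, the sulfotransferases, had a median of 18.2, and Serpinb, intracellular protease inhibitors, 19.2, although Serpinb6a read 383, 365 and 306. Mmp, the matrix metalloproteases, stood at 23.3, with the membrane-bound Mmp14 highest at 77.3 and Mmp2 and Mmp9 at 23.3 and 23.0. Fgf, the fibroblast growth factors, stood at 24.1, with the highest of 17 genes, Fgf11, at 57.0, and Ccr, chemokine receptors of leukocytes, at 24.4. Myh, the myosin heavy chains, stood at 24.7. The non-muscle Myh9 was its highest gene at 344, 402 and 305, and the skeletal muscle Myh1 its lowest at 4.99, 9.20 and 5.55. Igkv, antibody light chain segments, stood at 28.5. Medians on designs B and C were 97.2 and 38.5 for Fabp, by 1 gene each, and 62.3 and 50.9 for Fgf. They were 12.9 and 16.9 for Sult, 22.9 and 27.6 for Serpinb, 34.8 and 4.0 for Mmp, and 45.0 and 35.5 for Myh. Mmp on C rested on 1 gene, and Sult and Myh on C and Fgf on B on 2 genes each. Ccr stood at 4.74 on B, also by 2 genes.

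**Figure D3:**
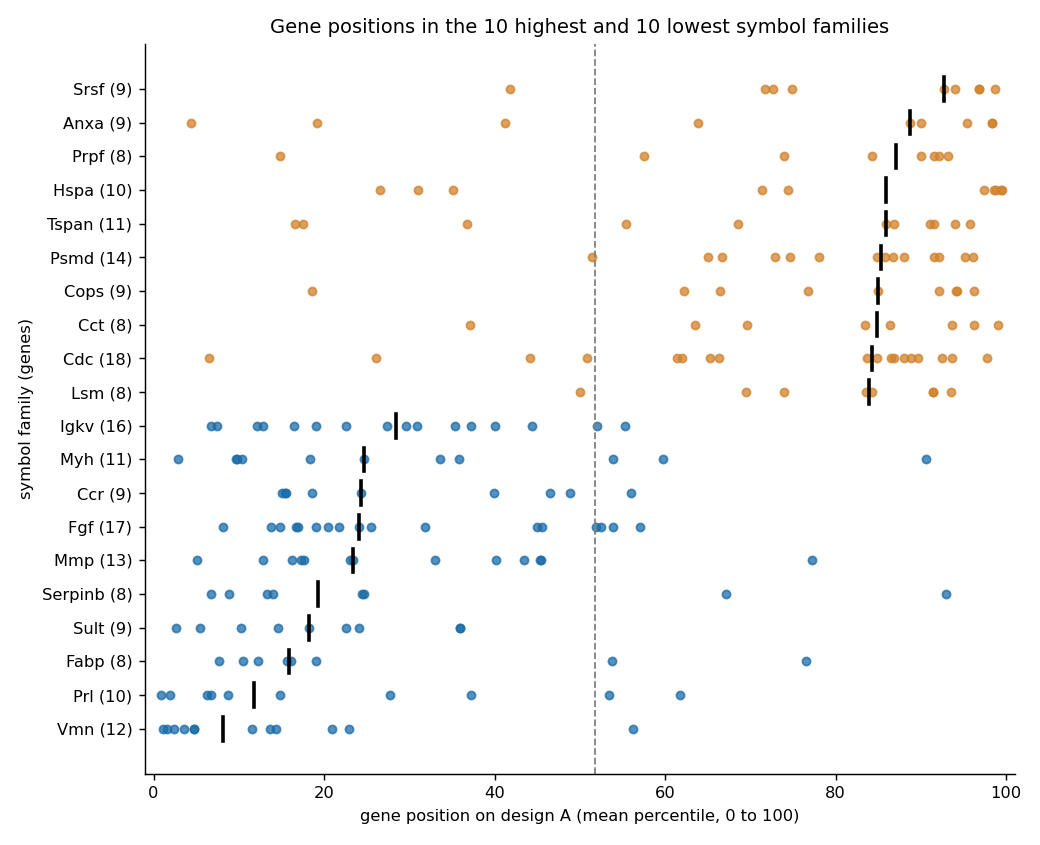
Position on design A (mean percentile over 3 arrays, 0 to 100) of each gene in the 10 symbol families with the highest medians (orange) and the 10 with the lowest (blue), with the number of genes in brackets, the family median as a black bar and the median of all genes, 51.8, as a dashed line. Members spread widely within a family, with Anxa10 low among high annexins and Myh9 high among low myosins.

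Together the 10 highest families held 104 genes, 22 in the upper and 2 in the lower tail. The 10 lowest held 113 genes, with none in the upper and 21 in the lower tail. Each tail holds 5.01% of all genes. Families were ordered by the same positions that set the tails, so these counts follow from that order and are no separate result. The solute carriers, Slc, had 9 upper-tail and 11 lower-tail genes of 151, which is 5.96% and 7.28% and near the 5.01% of all genes. The proton and ion pump and ATP synthase genes gathered under Atp had 8 upper-tail genes of 47 and none in the lower tail. The cytochrome P450 genes, Cyp, had none of 40 in the upper tail and 8 in the lower, and the zinc finger genes, Zfp, none of 89 and 8.

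Ribosomal protein genes were split across the ranking. Of 20 genes under Rps, 6 lay in the upper tail (30%), and of 16 under Rpl, 5 did (31.25%), beside 5.01% of all genes. Both groups follow the opening letters of symbols, so they are not exactly the ribosomal protein genes, and Rplp0 falls outside Rpl. Rps15 lay at position 17.1, Rpl32 at 17.1 and Rpl39 at 19.8, although every ribosome holds these proteins. The lowest gene under Rps was Rps6ka3, which is a kinase and no ribosomal protein. These 3 ribosomal genes were chosen after their values were seen.

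Many genes are measured by several probe sets of design A, which gives the tails a check within the same arrays. Of 542 probe sets in the highest 5%, 221 belonged to a gene with other probe sets, and those others had a median position of 63.2, against 48.0 for the 4655 probe sets of all genes with several. They averaged above 80 for 77 (34.8%), beside 16.0% of the 4655. For the lowest 542 probe sets, 361 had others, whose median was 37.0, and 97 (26.9%) averaged below 20, beside 19.4%. Of 2073 genes with several probe sets, 190 (9.17%) had a probe set above 80 and another below 20. The median gap between the highest and the lowest was 29.9, with quartiles of 13.4 and 51.1.

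The widest gaps set bright and dim probe sets of the same gene on the same array. Psmb4, a proteasome beta subunit, read 1237, 1547 and 1462 by its highest probe set and 4.68, 5.73 and 2.59 by its lowest. Vcp, the ATPase that pulls ubiquitinated proteins out of membranes, read 845, 975 and 752 against 2.26, 1.12 and 0.87. Tjp1, the tight junction protein ZO-1, read 656, 744 and 618 against 0.64, 0.66 and 1.48. In these 3 genes the low reading came from an r probe set and neither reading put the gene's mean in a tail. Snrpb, a spliceosomal Sm protein, showed the gap within a letter, since both its probe sets carry an r and read 2530, 1854 and 2019 against 5.67, 5.39 and 6.11.

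The letter r marked the lower end far more than the upper. It is carried by 739 of the 10833 probe sets, 6.82%, and by 189 (34.9%) of the lowest 542 and 20 (3.69%) of the highest 542. Of all r probe sets 25.6% lay in the lowest 5%, and their median position was 32.7, against 53.4 for the 8555 probe sets without a letter. The letter f, for probes shared by a sequence family, was carried by 13.8% of the highest and 11.3% of the lowest, against 7.93% overall. Any letter was carried by 55.5% of the lowest, 23.2% of the highest and 21.0% of all. Among genes, 0.73% of the upper tail, 6.54% of the lower tail and 1.54% of all rested only on r probe sets. 87.9% of upper-tail, 75.5% of lower-tail and 78.0% of all genes rested only on probe sets without a letter. The part of probe design in the low signals was not tested.

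**Figure D4:**
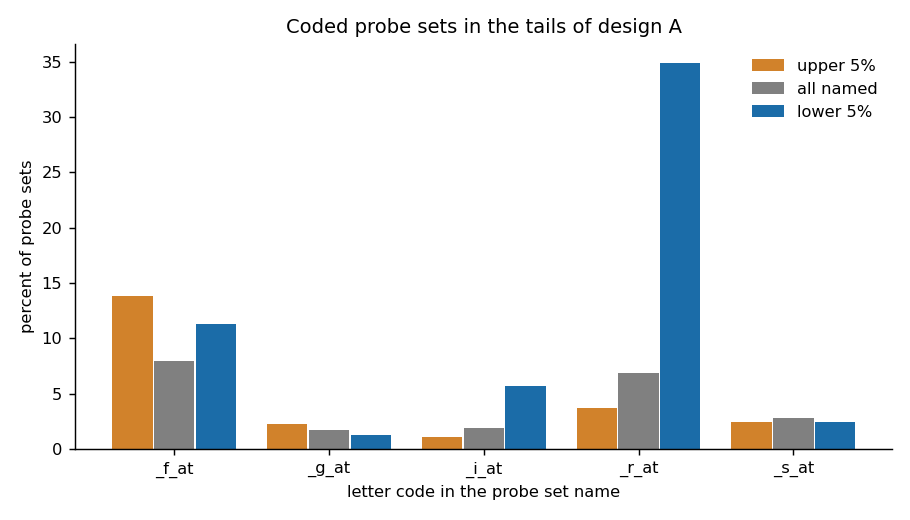
Percent of probe sets whose name carries each letter, among the highest 5% (orange, 542 probe sets), all 10833 named probe sets (grey) and the lowest 5% (blue, 542). The letter r stands at 34.9% of the lowest, 6.82% of all and 3.69% of the highest.

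Designs B and C measure some of the same genes with other probes, on arrays of the same kind of sample. Of the upper tail, 93 genes are on B and 100 on C. On B 20 of 93 (21.5%) lay above 80, beside 18.0% of all 2119 shared genes, and 19 (20.4%) lay below 20, beside 18.0%. On C 24 of 100 lay above 80, beside 19.4% of 2049, and 25 below 20, beside 15.9%. The share above 80 was thus near that of all shared genes on both designs for tails of 5%. For tails of 1% it was 4 of 12 (33.3%) on B and 8 of 25 on C, beside the same 18.0% and 19.4%. The median position of 47.7 on B and 53.0 on C of the 5% tail was close to the 50.5 and 52.6 of all shared genes. Of the lower tail, 34 of 96 (35.4%) lay below 20 on B and 21 of 91 (23.1%) on C, with medians of 35.1 and 43.0. On C the upper tail had as large a share below 20 as the lower tail, and the share of the lower tail depended on the tail size, with 17.8% below 20 for tails of 10% and 15.8% for tails of 1%, near the 15.9% of all shared genes. Over all shared genes, positions on A correlated with those on B at r = 0.0975 and with those on C at r = 0.0660, given as a description over 2119 and 2049 genes.

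**Figure D5:**
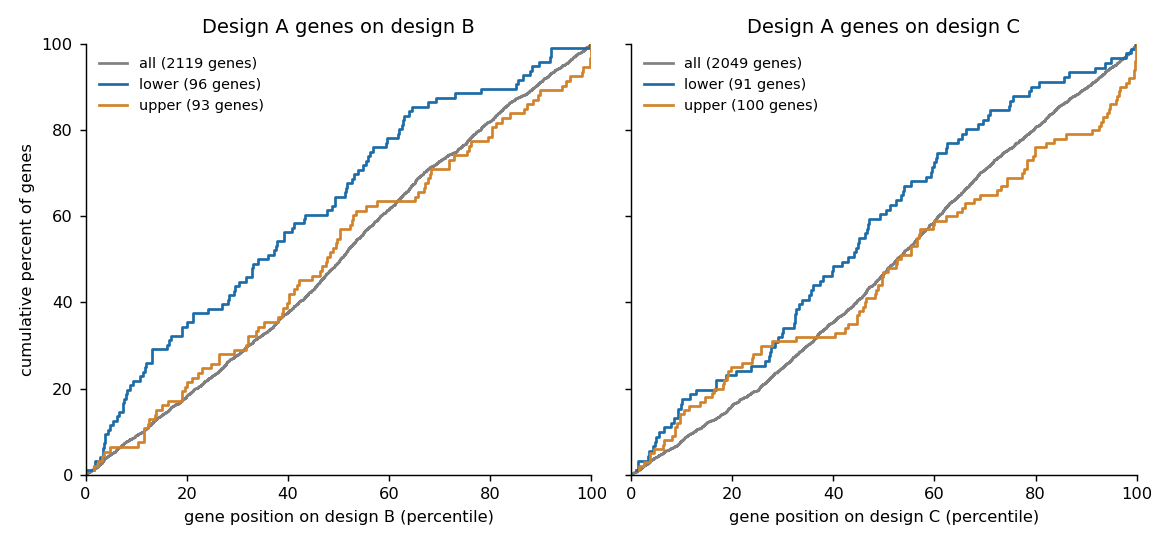
Cumulative percent of genes by their position (percentile) on design B (left) and design C (right), for upper-tail genes of design A (orange), lower-tail genes (blue) and all shared genes (grey). The lower-tail line lies above the grey line for most of the range, most clearly on B, and on C the upper-tail line also lies above it at low positions, with 25 of 100 upper-tail genes below 20.

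Genes that kept their end on all 3 designs were few. Of 33 upper-tail genes on both other designs, 2 (6.06%) lay above 80 on each, beside 3.87% of the 698 genes on all designs. Flt1, the VEGF receptor 1, read 698, 727 and 747 on A and lay at 98.3 on B and 99.9 on C. Fth1, the ferritin heavy chain, read 635, 638 and 713 and lay at 99.95 and 99.8. Of 32 lower-tail genes on both, 4 (12.5%) lay below 20 on each, beside 3.87%. They were Bmpr1a, a BMP receptor, Bnip3, a mitochondrial protein of hypoxia and autophagy, the adhesion molecule Alcam and the sodium channel gene Scn7a. Bnip3 read 11.4, 11.0 and 8.96 on A and lay at 0.33 on B.

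Some of the brightest genes of A were among the dimmest elsewhere. Rac1, a small GTPase of the actin cytoskeleton, read 1278, 1241 and 1131 on A and 5.36, 4.36 and 4.87 on C. Serinc3, a membrane protein, read 874, 1036 and 943 on A and 6.73, 4.85 and 5.97 on B. Rars, the arginyl-tRNA synthetase, and Gdi2, which recycles Rab GTPases, stood above 96 on A and below 2 on C and B. The reverse was seen as well. S100a16, a calcium-binding protein, read 6.49, 7.45 and 9.35 on A and 1496, 2156 and 1596 on C. Xiap, an inhibitor of caspases, lay at 8.23 on A by 3 probe sets, at 91.9 on B and at 93.7 on C. These genes were picked for their disagreement, and all arrays carry the same kind of sample.

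Of the 413 upper-tail genes 366 (88.6%) were in the upper tail of each array taken alone, and of the 413 lower-tail genes 311 (75.3%) were in the lower. The median SD of a gene's position was 0.317 in the upper tail, 1.06 in the lower tail and 1.86 over all genes; a percentile near an end has less room to vary. On the log2 scale the median range over the 3 arrays was 0.26 in the upper tail, 0.34 in the lower tail and 0.23 over all genes. On that scale both tails thus ranged more widely than all genes, and the upper tail again less than the lower. When tails were drawn from 2 arrays and read on the array left out, 384, 381 and 386 of 413 upper-tail genes (93.0%, 92.3% and 93.5%) were in its upper tail and all lay above 80. For the lower tail the counts were 358, 347 and 348 of 413. All of these lay below 20 on the array left out except 2 when array 2 was left out, of which Rln1, the hormone relaxin, reached 57.0.

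A range over the 3 arrays of more than 1 on the log2 scale was found in 7 upper-tail genes (1.69%) and 20 lower-tail genes (4.84%), beside 0.994% of all genes. Cyct, the testis form of cytochrome c, whose sequence resembles the somatic form, read 2144, 1073 and 3053. Mylk, the myosin light chain kinase of contractile cells, read 837, 370 and 787, and Nsmce1, of a DNA repair complex, 753, 332 and 590. Array 2 was the lowest in each of these 3 genes and in Sprr2j-ps, at 823, 381 and 458. Slc38a5, a glutamine transporter, was instead lowest on array 1, at 270, 620 and 539. Without array 2 no upper-tail gene had so wide a range, and 7 lower-tail genes did. Leaving out any array can only keep or lower such counts. They were 2 and 8 without array 1, and 6 and 12 without array 3. At the lower end Cr2 read 0.74, 4.98 and 3.70, and Chil1, a chitinase-like protein, 5.08, 18.2 and 5.48.

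Nothing marks a break at the tail bounds. Just inside the upper bound were Cacybp, Azin1, Mdh2, Polr2m and Actn4, all at 93.9, and just outside Ahnak, Tmem223, Atp6v1d, Ppib and Eif4g2, at 93.8 to 93.9. Actn4, an actin crosslinker, read 379, 401 and 401, and Ahnak, a giant scaffold protein, 536, 324 and 371. Just inside the lower bound were Ang, Myo5a, Dkk3, Lysmd1 and Hemgn, at 9.14 to 9.16, and just outside Cd244a, B3galt2, Lactb2, Tal2 and Cxcl13, at 9.17 to 9.21.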

How the data were processed

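The authors deposited 1 intensity per probe set and array. The way these intensity values were summarised and scaled was not given in the sources used here. RNA was amplified before labelling, per the labels' protocols. Gene symbols came from the platform annotation, and 10817 of the 10833 probe sets on design A with 1 symbol matched a RefSeq gene ID, which changed no symbol. The 9 arrays were grouped by design, 3 each, and their number limits the precision.

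Percentiles were computed over all 12422 probe sets of an array. Tails were the 5% of genes at each end, high and low on another design meant above 80 and below 20, and families shared at least 3 opening letters over at least 8 genes. With 1 condition there is no contrast, so no test was run. Named genes were the 30 at each end, members of the 10 highest and 10 lowest families, the 10 widest gaps between probe sets, the 5 widest ranges in each tail, the 10 largest disagreements with B or C, 5 genes on each side of each bound, and markers. Members, lists and rules were chosen with earlier results of these data known. Promoters were limited, after match rates were seen, to protein-coding genes on the chromosomes the promoter table lists. Python 3.11.15, pandas 2.3.3, numpy 2.4.6 and scipy 1.17.1 were used, and the ranking was tested on simulated data.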

Additional observations from a re-analysis of the deposited data

How the results depend on the processing

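No paired analysis was possible because there is 1 condition and the results come from no test. The limits are the 3 arrays, the unknown scaling, the lack of background calls and the dependence of signal on probes. Protein length, planned beside the promoters, was not run. Alternatives were leaving out each array, the median over arrays, percentiles among named probe sets only, probe sets without a letter only, the highest probe set per gene on A or on B and C, quantile normalisation, tails of 10% and 1%, bounds at 50, and 50 added before log2. With the highest probe set 293 of 413 upper-tail and 384 of 413 lower-tail genes stayed. With probe sets without a letter only, a tail held 383 genes, and 351 upper-tail and 335 lower-tail genes stayed. Of the 413 genes, 36 in the upper and 61 in the lower tail had no such probe set and could not stay. The median CpG ratio of the upper tail (0.816) was 0.812 to 0.824 without 1 array, 0.824 by the median over arrays, 0.799 by the highest probe set, 0.798 and 0.870 with tails of 10% and 1%, and 0.820 over promoters of all matched genes, a choice made after seeing the data. That of the lower tail (0.430) was 0.452 to 0.453 without 1 array, 0.444 by the highest probe set, and 0.441 and 0.328 with tails of 10% and 1%. The upper tail stayed above the lower in each of these.

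With tails of 10%, 46 of 204 upper-tail genes (22.5%) lay above 80 on B and 54 of 210 (25.7%) on C. The shares of all shared genes were 18.0% and 19.4%. Below 20 lay 65 of 195 lower-tail genes (33.3%) on B and 32 of 180 (17.8%) on C, beside 18.0% and 15.9%. Tails of 1% held 83 genes at each end, all of them from the 5% tails. In the same order the counts were 4 of 12 (33.3%), 8 of 25 (32.0%), 8 of 16 (50.0%) and 3 of 19 (15.8%), beside the same shares. So the excess of low genes on C was not seen at 1% and was small at 10%, while upper-tail shares above 80 were larger at 1% (33.3% on B) than at 5%. For the 5% tails, 42 of 93 upper-tail genes (45.2%) lay above 50 on B and 53 of 100 on C, beside 50.9% and 53.4%. Below 50 lay 62 of 96 lower-tail genes (64.6%) on B and 55 of 91 (60.4%) on C, beside 49.1% and 46.6%. With probe sets without a letter only, 56 genes had probe sets both above 80 and below 20, in place of 190 of 2073. Fewer genes then have several probe sets, and their number was not counted, so these counts cannot be compared as shares. In that setting 6 of the 10 highest families stayed among the 10 highest. Without 1 array, genes with a log2 range above 1 numbered 0 to 6 in the upper tail and 7 to 12 in the lower. They were fewest without array 2, though leaving out any array can only keep or lower such counts. With 50 added there were 0 in the lower tail. That count was fixed in advance, because a range above 1 would then need a reading above 50, and this tail lies below that. Of 140 recomputed medians of the 20 named families, 105 moved by less than the spread between arrays. None of the 10 highest fell below 76.9 and none of the 10 lowest rose above 35.3. The cause of these shifts was not tested.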

Other observations

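Further genes of the tails, picked after their values were seen and for their known roles, extend the description. Such picks give no share of the genes of any role in either tail. Efnb2, the ephrin ligand of arterial endothelium, read 1399, 1382 and 1004 on the 3 arrays of design A. Abcg2, an efflux transporter of the blood-retina barrier, read 1094, 1032 and 1034, and lay at position 12.5 on design B. Plxnd1, a semaphorin receptor of vessels, read 697, 747 and 588, and Ramp2, the partner of the adrenomedullin receptor, 481, 543 and 541. Ece1, which activates endothelin, read 820, 749 and 758 and lay at 81.2 on B. The VEGF receptor gene Kdr read 1863, 1942 and 1349 and lay at 49.6 on design C.

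Klf6, a zinc finger factor, read 1101, 996 and 844 and lay at 99.9 on design B. Cxcl1, a chemokine for neutrophils, read 1106, 1134 and 1050, and Sgk1, a kinase induced by serum and glucocorticoids, 1078, 1290 and 1099. In the lower tail, Crp, a plasma protein of the liver, read 7.86, 9.33 and 9.07, and Fgb, a fibrinogen chain, 10.9, 8.64 and 9.33. Pth, the parathyroid hormone, lay at position 5.76, and Gad1, the GABA-making enzyme of inhibitory neurons, read 6.24, 6.28 and 5.80.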
